A study of Mus musculus with 12 samples.

Results

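The level of 10 adipocyte genes was examined in RNA from the tibia shaft of mice with severe osteogenesis imperfecta that did or did not produce sclerostin. The genes were *Adipoq*, *Fabp4*, *Plin1*, *Plin4*, *Cfd*, *Cidec*, *Lep*, *Retn*, *Pparg* and *Lpl*, found by their symbols among the 47069 genes of the count matrix. Each of the 10 symbols matched 1 gene. All 12 mice were male and aged 8 weeks. The 4 Jrt;Sost-ko mice were labelled Col1a1Jrt/+ Sost-/-, and carried the dominant *Col1a1* splice-site allele Jrt together with loss of *Sost*, the gene of sclerostin. The 4 Jrt;Sost-het mice were labelled Col1a1Jrt/+ alone, and the study's methods give them 1 working copy of *Sost*. The 4 WT mice carried neither allele and came from a parallel colony, and in any comparison with WT the effects of colony and genotype cannot be told apart. The Jrt allele is from an FVB background and the *Sost* allele from C57BL6, and the mice were of mixed background. The loss of *Sost* was germline, not limited to bone cells. Bone marrow was flushed from the shafts before extraction.

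Adipocytes of long bones lie in the marrow and arise from stromal precursors that can also give rise to osteoblasts. PPARγ, encoded by *Pparg*, switches on the mature adipocyte programme, in which lipid is taken up, stored in droplets coated by perilipins, and released again, and in which hormones such as adiponectin and leptin are secreted. Sclerostin is secreted by osteocytes and inhibits Wnt signaling, a pathway known to favor osteoblast over adipocyte formation. Several of these genes are not restricted to adipocytes: *Lpl* is also used by muscle, *Fabp4* by endothelial cells and macrophages, and *Pparg* by macrophages and osteoclasts. In bulk RNA, fewer adipocytes and less RNA per adipocyte cannot be told apart.

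No adipocyte gene passed the test in any of the 3 comparisons. *Adipoq* varied little between mice, whereas *Fabp4*, *Plin4*, *Cfd* and *Cidec* varied together over the 12 mice. The letters upstream of the start are shown for *Adipoq*, *Plin4*, *Cfd* and *Cidec*, on which this contrast rests, and for *Lep*, which had the largest SD within groups on the log2 scale. Windows of 250 bases before the RefSeq start (GRCm38.p6) were found for 8 of the 10 genes, all but *Fabp4* and *Lpl*, with more than 1 start for *Cidec* and *Pparg*. The sequences run 5′ to 3′ on the strand of the gene, and capitals mark the letters TTGCNNAA, the core that C/EBP factors bind. The windows of *Plin4* and *Lep* were cut by the 21 and 1 bases that lie in annotated exons, and for *Cidec* the start that matches the annotated end of the gene is shown.
Adipoq, chr16:23146286-23146535, plus strand: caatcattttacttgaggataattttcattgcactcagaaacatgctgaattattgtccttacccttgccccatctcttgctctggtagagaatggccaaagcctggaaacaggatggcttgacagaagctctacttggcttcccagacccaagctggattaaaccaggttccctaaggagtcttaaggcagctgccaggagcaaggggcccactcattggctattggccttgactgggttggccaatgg
Plin4, chr17:56109804-56110032, minus strand: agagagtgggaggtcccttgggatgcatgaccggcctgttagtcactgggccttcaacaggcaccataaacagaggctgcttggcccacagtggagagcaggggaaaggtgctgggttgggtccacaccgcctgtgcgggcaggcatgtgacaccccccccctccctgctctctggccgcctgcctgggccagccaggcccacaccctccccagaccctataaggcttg
Cfd, chr10:79890603-79890852, plus strand: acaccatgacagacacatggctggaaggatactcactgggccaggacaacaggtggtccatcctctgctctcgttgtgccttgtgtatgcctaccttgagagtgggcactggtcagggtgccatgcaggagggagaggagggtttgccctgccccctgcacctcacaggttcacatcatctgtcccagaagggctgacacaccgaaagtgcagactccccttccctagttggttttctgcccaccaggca
Cidec, chr6:113435761-113436010, minus strand: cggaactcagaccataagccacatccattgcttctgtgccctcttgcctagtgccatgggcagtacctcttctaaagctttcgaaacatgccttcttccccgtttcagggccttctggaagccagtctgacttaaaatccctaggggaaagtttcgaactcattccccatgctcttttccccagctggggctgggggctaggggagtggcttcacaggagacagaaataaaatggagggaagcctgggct
Lep, chr6:29059971-29060219, plus strand: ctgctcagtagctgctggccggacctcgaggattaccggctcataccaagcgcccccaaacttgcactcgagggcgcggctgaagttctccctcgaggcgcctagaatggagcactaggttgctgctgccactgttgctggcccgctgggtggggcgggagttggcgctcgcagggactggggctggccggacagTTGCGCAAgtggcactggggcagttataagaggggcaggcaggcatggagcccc

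The core TTGCNNAA was searched on both strands and was found in 9.56% of 32851 windows of the same length. Of the 11 windows of the adipocyte genes it lay in 4, those of *Plin1*, *Lep*, the second start of *Cidec* and the third start of *Pparg*. In *Lep* it lay 55 to 48 bases before the start and reads the same on both strands. In *Plin1* the match 58 to 51 bases before the RefSeq start lay after the start of an annotated exon, 127 bases before it. The half-site AGGTCA of nuclear receptors, searched on both strands, was in 14.0% of all windows and in the first and second *Pparg* windows. These *Pparg* matches lay 28 to 23 and 9 to 4 bases before the RefSeq start. Both lay after the start of an annotated exon, which was 193 and 57 bases before it. The direct repeat of this half-site with 1 base between the copies (DR1) was in 0.0335% of all windows and in none of the 11. The letters TATAAA on the strand of the gene were in 7.59% of all windows and in none of the 11. The windows of *Adipoq*, *Plin4*, *Cfd* and the first start of *Cidec* held none of these letters.

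Total counts on genes ranged from 24366061 to 44418863 per mouse, and TMM scaling factors from 0.978 to 1.02. Levels are given as CPM, counts scaled to a common library size, after TMM normalization over the 12 libraries. *Sost* was at 26.8 to 70.4 CPM in Jrt;Sost-het mice, at 28.5 to 72.3 CPM in WT mice and at 0.326 to 1.28 CPM in Jrt;Sost-ko mice. Against the Jrt;Sost-het group, the *Sost* level of Jrt;Sost-ko mice was lower (log2 fold change -5.87 ± 0.49 SE, adjusted p = 0.013 in edgeR). *Col1a1*, which encodes the main bone collagen, was at 8934 to 30052 CPM. Blood cell genes remained after flushing, with *S100a8* of neutrophils at 3037 to 5838 CPM and *Hbb-bs* of red cells at 7515 to 15160 CPM. Summed genes of skeletal muscle differed most between mice, from 37.0 CPM in Jrt;Sost-ko mouse 4 to 31620 CPM in WT mouse 4. Epidermal genes summed to 191 and 739 CPM in WT mice 3 and 4 and to between 11.9 and 25.0 CPM in the others.

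The 10 adipocyte genes together took 0.0732% to 0.153% of the counts of a mouse, the lowest in WT mouse 2 and the highest in Jrt;Sost-het mouse 2. Each was detected in every mouse, with at least 86 counts, and all 10 passed the filter on low counts in every comparison. Levels of different genes were compared per kilobase of the principal transcript. *Fabp4* had the highest level (325 ± 81.1 CPM per kb, SD, n = 12), followed by *Cfd* (190.5 ± 72.6), *Lpl* (88.1 ± 15.8) and *Adipoq* (63.8 ± 4.94). *Plin1* (14.3 ± 4.33), *Cidec* (13.9 ± 5.12) and *Pparg* (12.6 ± 1.80) came next and did not differ beyond their spread. *Plin4* (8.65 ± 3.21), *Retn* (6.44 ± 2.51) and *Lep* (2.11 ± 0.921) were lowest, and *Plin4* and *Retn* also overlapped in their spread. Over merged exons, which for *Fabp4* include a retained intron, the order was different. *Fabp4* came to 64.8 CPM per kb, below *Cfd* (190.5), and *Lpl* to 34.6, below *Adipoq* (59.7). *Pparg* came to 7.52, below *Plin4* (8.62), which was then level with *Plin1* (8.65).

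**Figure D1:**
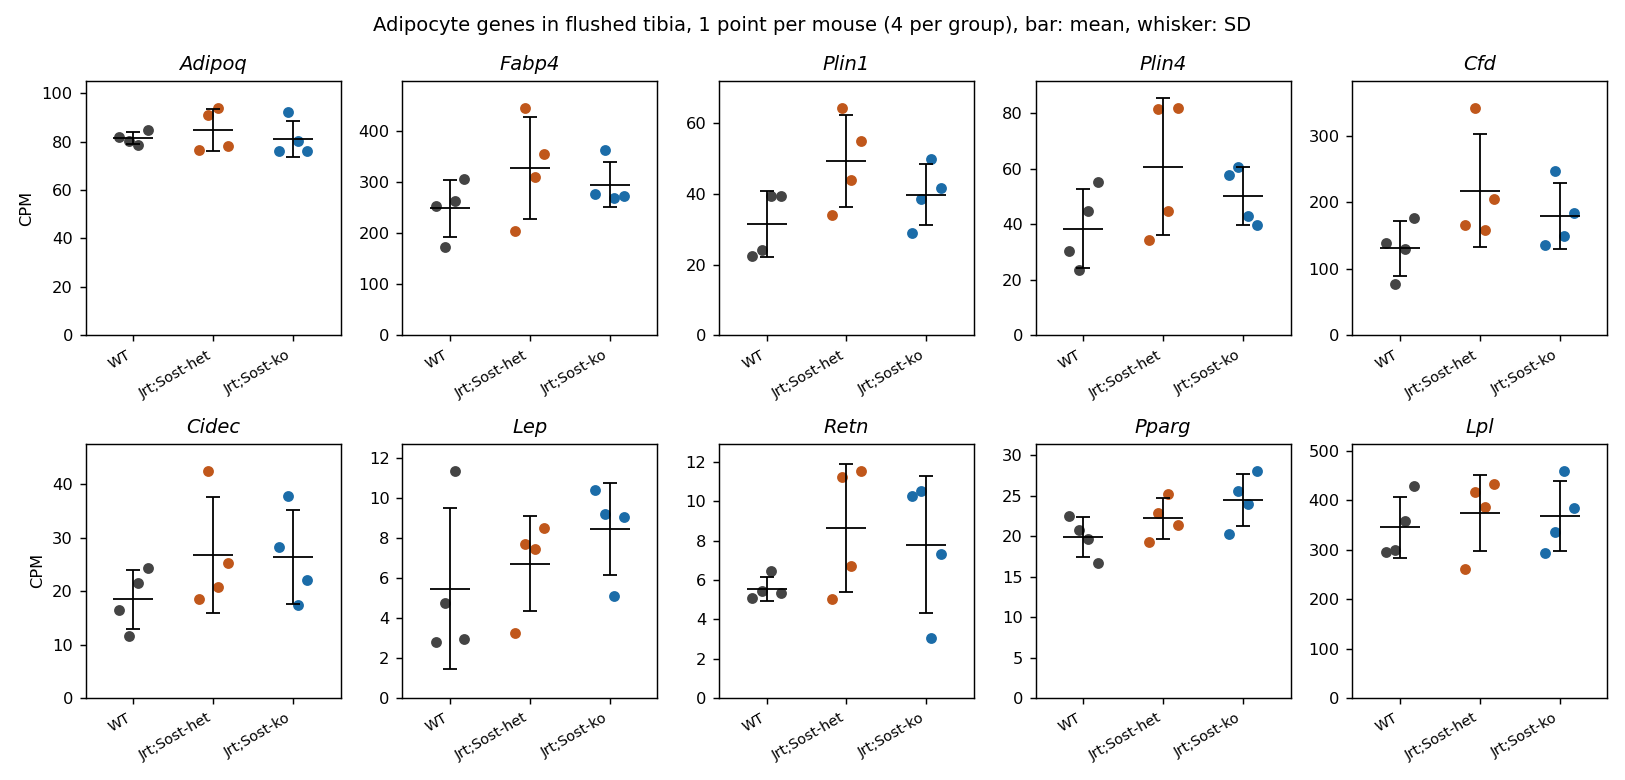
Level of each adipocyte gene (CPM, y axis from 0) in the groups WT, Jrt;Sost-het and Jrt;Sost-ko, with 1 point per mouse, the mean as a bar and the SD as a whisker (n = 4 per group). The groups overlap for all 10 genes, and the highest *Adipoq* level (93.7 CPM) is 1.23-fold the lowest (76.1 CPM), the smallest such fold of the 10.

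*Pparg* (ENSMUSG00000000440; GRCm38 chromosome 6, 115360951 to 115490399, plus strand) encodes the transcription factor that directs adipocyte differentiation. *Pparg* was at 22.5, 20.8, 19.7 and 16.6 CPM in WT mice, at 19.4, 22.9, 25.3 and 21.3 CPM in Jrt;Sost-het mice and at 20.3, 25.6, 24.0 and 28.1 CPM in Jrt;Sost-ko mice. The lowest value was in a WT mouse and the highest in a Jrt;Sost-ko mouse, and all groups overlapped. An antisense gene lies within the *Pparg* locus on the other strand but shares 0 exonic bases with it.

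*Fabp4* (ENSMUSG00000062515; chromosome 3, 10204088 to 10208576, minus strand) carries fatty acids within the cell, and *Lpl* (ENSMUSG00000015568; chromosome 8, 68880491 to 68907448, plus strand) frees them from circulating triglyceride. *Fabp4* was at 254, 172, 263 and 306 CPM in WT mice, at 204, 444, 310.2 and 355 CPM in Jrt;Sost-het mice and at 277, 362, 269 and 273 CPM in Jrt;Sost-ko mice. Jrt;Sost-het mouse 2 was highest and WT mouse 2 lowest. *Lpl* was at 296, 299, 357 and 428 CPM in WT mice, at 262, 416, 387 and 432 CPM in Jrt;Sost-het mice and at 294, 335, 459 and 384 CPM in Jrt;Sost-ko mice. For *Lpl* the order of the mice was different, with Jrt;Sost-ko mouse 3 highest and Jrt;Sost-het mouse 1 lowest.

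Proteins of the lipid droplet surface are encoded by *Plin1* (ENSMUSG00000030546; chromosome 7, 79720218 to 79732903, minus strand), which gates access of lipases to stored fat, by *Plin4* (ENSMUSG00000002831; chromosome 17, 56100591 to 56109803, minus strand), another perilipin, and by *Cidec* (ENSMUSG00000030278; chromosome 6, 113424634 to 113435760, minus strand), which enlarges droplets by fusion. *Plin1* was at 22.5, 24.2, 39.5 and 39.5 CPM in WT mice, at 34.1, 64.3, 44.0 and 54.9 CPM in Jrt;Sost-het mice and at 29.1, 38.5, 49.9 and 41.8 CPM in Jrt;Sost-ko mice. The lowest values, in WT mice 1 and 2, lay below those of every mouse of the other groups, whereas WT mice 3 and 4 lay among them. *Plin4* was at 30.5, 23.4, 44.7 and 55.2 CPM in WT mice, at 34.6, 81.7, 44.8 and 81.8 CPM in Jrt;Sost-het mice and at 57.7, 60.5, 43.0 and 39.7 CPM in Jrt;Sost-ko mice. Within the Jrt;Sost-het group, mice 2 and 4 were well above mice 1 and 3. *Cidec* was at 16.5, 11.7, 21.4 and 24.2 CPM in WT mice, at 18.5, 42.4, 20.7 and 25.3 CPM in Jrt;Sost-het mice and at 28.2, 37.7, 17.4 and 22.1 CPM in Jrt;Sost-ko mice. The same Jrt;Sost-het mouse 2 was again highest and WT mouse 2 lowest. *Plin4* shares 17 of its 5777 exonic bases with *Hdgfl2* on the other strand, and the strand setting of the counts is not given in the sources used here.

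Of the secreted products, *Adipoq* (ENSMUSG00000022878; chromosome 16, 23146536 to 23158028, plus strand) encodes adiponectin, a hormone made by adipocytes. *Adipoq* was at 81.7, 80.4, 78.7 and 84.6 CPM in WT mice, at 76.6, 90.8, 93.7 and 78.4 CPM in Jrt;Sost-het mice and at 76.2, 92.1, 80.1 and 76.1 CPM in Jrt;Sost-ko mice. The values of the 3 groups lay within each other, and the highest was only 1.23-fold the lowest. *Cfd* (ENSMUSG00000061780; chromosome 10, 79890853 to 79892655, plus strand) encodes adipsin, the complement factor D. *Cfd* was at 138, 76.7, 130.3 and 177 CPM in WT mice, at 166, 341, 158 and 204 CPM in Jrt;Sost-het mice and at 135, 247, 149 and 184 CPM in Jrt;Sost-ko mice. Its highest value, in Jrt;Sost-het mouse 2, was 4.44-fold the lowest, in WT mouse 2.

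*Lep* (ENSMUSG00000059201; chromosome 6, 29060220 to 29073877, plus strand) encodes leptin, which signals fat stores to the brain. *Lep* was at 2.82, 4.75, 11.4 and 2.96 CPM in WT mice, at 3.25, 7.69, 7.45 and 8.52 CPM in Jrt;Sost-het mice and at 10.4, 9.19, 5.11 and 9.07 CPM in Jrt;Sost-ko mice. The highest *Lep* level of all was in WT mouse 3, whereas the other WT mice were at or below 4.75 CPM. *Retn* (ENSMUSG00000012705; chromosome 8, 3655770 to 3660110, plus strand) encodes resistin, a hormone of mouse adipocytes. *Retn* was at 5.06, 5.43, 6.46 and 5.32 CPM in WT mice, at 5.03, 11.3, 6.74 and 11.5 CPM in Jrt;Sost-het mice and at 10.3, 10.5, 3.05 and 7.31 CPM in Jrt;Sost-ko mice. WT mice were close together, and the other groups each held both low and high values.

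The comparison of Jrt;Sost-ko mice with the Jrt;Sost-het group, called the within-colony comparison here, asks what loss of sclerostin adds in mice of 1 colony that all carry Jrt. Differences in it are given as Jrt;Sost-ko minus Jrt;Sost-het. Of the 10 adipocyte genes, 0 passed an adjusted p of 0.05 in edgeR's quasi-likelihood test, where 0.00597% of 16739 tested genes did (1 gene, *Sost*). At an unadjusted p under 0.05 the count was 0 of 10, with 5.02% of all genes, and the groups overlapped for all 10, where 3.2% of all genes did not overlap. The log2 fold change was above 0 for 2 of the 10 (50.4% of all genes) and negative for 8, with a median of -0.11, beside 0.0013 over all genes tested. *Plin1* had the largest negative difference (39.8 ± 8.61 against 49.3 ± 13.1 CPM, SD, n = 4 each; log2 fold change -0.31 ± 0.21 SE, adjusted p = 0.90 in edgeR). *Cfd* was at 179 ± 49.8 CPM in Jrt;Sost-ko mice, against 217 ± 84.8 CPM in the Jrt;Sost-het group (log2 fold change -0.28 ± 0.27 SE).

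In the other direction, *Lep* was at 8.45 ± 2.31 CPM in Jrt;Sost-ko mice, against 6.73 ± 2.36 CPM in the other group (log2 fold change 0.33 ± 0.31 SE, adjusted p = 0.90 in edgeR). *Pparg* was at 24.5 ± 3.27 and 22.2 ± 2.50 CPM (log2 fold change 0.14 ± 0.12 SE). Because a missed threshold does not show equality, the intervals bound what these mice allow. For *Adipoq* the 95% confidence interval of the fold was 0.832 to 1.10, and for *Pparg* 0.920 to 1.32. For *Fabp4* it was 0.643 to 1.26, for *Cfd* 0.537 to 1.26 and for *Retn* 0.479 to 1.69. Folds within these intervals are compatible with the data from 4 mice per group, and the smallest detectable difference was not computed. Without Jrt;Sost-het mouse 2, the median log2 fold change of the 10 genes was 0.02 in place of -0.11, and that of *Cfd* 0.02 in place of -0.28.

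The comparison of Jrt;Sost-het with WT mice asks how mice with Jrt differ from mice of the other colony. The mean of all 10 adipocyte genes was higher in Jrt;Sost-het mice, where 51.3% of 16775 tested genes had a log2 fold change above 0. None of the 10 passed the adjusted threshold in edgeR, as for 0% of all genes tested. At an unadjusted p under 0.05 there were 3 of 10, with 2.14% of all genes. The groups overlapped for all 10, where 1.54% of all genes did not. The median log2 fold change was 0.47, beside 0.0036 over all genes. Genes of other cells also had higher means in Jrt;Sost-het mice, with 10 of 10 endothelial (median 0.21), 10 of 10 osteoblast (median 0.19) and 10 of 10 macrophage genes (median 0.08), whereas 11 of 12 neutrophil (median -0.08) and 8 of 9 erythroid genes (median -0.15) had lower ones. At an unadjusted p under 0.05 there were 0 in each of these 5 lists, and their part in the adipocyte values was not tested.

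The 3 genes were *Plin1*, *Cfd* and *Retn*. *Plin1* was at 49.3 ± 13.1 CPM in Jrt;Sost-het and 31.4 ± 9.36 CPM in WT mice (SD, n = 4 each; log2 fold change 0.65 ± 0.26 SE, edgeR p = 0.0328 unadjusted and 0.99998 adjusted, exact permutation p = 0.114). *Cfd* was at 217 ± 84.8 and 131 ± 41.3 CPM (log2 fold change 0.74 ± 0.31 SE, edgeR p = 0.0409 unadjusted, exact permutation p = 0.0857). *Retn* was at 8.64 ± 3.26 and 5.57 ± 0.612 CPM (log2 fold change 0.64 ± 0.27 SE, edgeR p = 0.0417 unadjusted, exact permutation p = 0.200). The exact permutation test was two-sided over 70 arrangements of the mice and can give no p below 0.0286. *Adipoq* differed least (log2 fold change 0.07 ± 0.07 SE, interval of the fold 0.932 to 1.18).

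The same WT mice served for the comparison with Jrt;Sost-ko mice, so both sets of values against WT share those mice and are not independent. The fitted log2 fold change of Jrt;Sost-ko mice was above 0 for all 10 genes, where it was for 49.1% of 17155 tested genes. For *Adipoq* it was 0.0019, with a sign that turned under other scalings, and the levels were 81.1 ± 7.53 CPM in Jrt;Sost-ko and 81.3 ± 2.50 CPM in WT mice. Of the 10, 0 passed the adjusted threshold in edgeR (0.00583% of all genes, 1 gene, *Sost*), 1 had an unadjusted p under 0.05 (3.89% of all genes), and 0 were without overlap (2.4% of all genes). The median log2 fold change was 0.37, beside -0.0030 over all genes. Other adipocyte lists, described below, went both ways. Of 9 other mature adipocyte genes, 8 had a higher mean in Jrt;Sost-ko than in WT mice (median 0.14). A lower mean was found for 8 of 13 genes of lipid droplets and lipolysis (median -0.06). It was also found for 10 of 11 genes of lipid and glucose uptake (median -0.12). In each of these lists 0 had an unadjusted p under 0.05. In the same comparison 10 of 10 osteoblast (median 0.44), 8 of 10 macrophage (median 0.11) and 5 of 10 endothelial genes (median -0.0026) had higher means, and 12 of 12 neutrophil (median -0.19) and 15 of 15 tested muscle genes (median -0.93) lower ones. Their part in the adipocyte values was not tested. *Pparg* was at 24.5 ± 3.27 CPM in Jrt;Sost-ko and 19.9 ± 2.46 CPM in WT mice (log2 fold change 0.30 ± 0.12 SE, edgeR p = 0.0341 unadjusted and 0.9996 adjusted, exact permutation p = 0.0857). *Lep* was at 8.45 ± 2.31 and 5.47 ± 4.02 CPM (log2 fold change 0.63 ± 0.46 SE). Leaving out WT mouse 3, the *Lep* difference was 1.27 on the log2 scale for Jrt;Sost-ko mice, and 0.95 in place of 0.30 for the Jrt;Sost-het group.

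**Figure D2:**
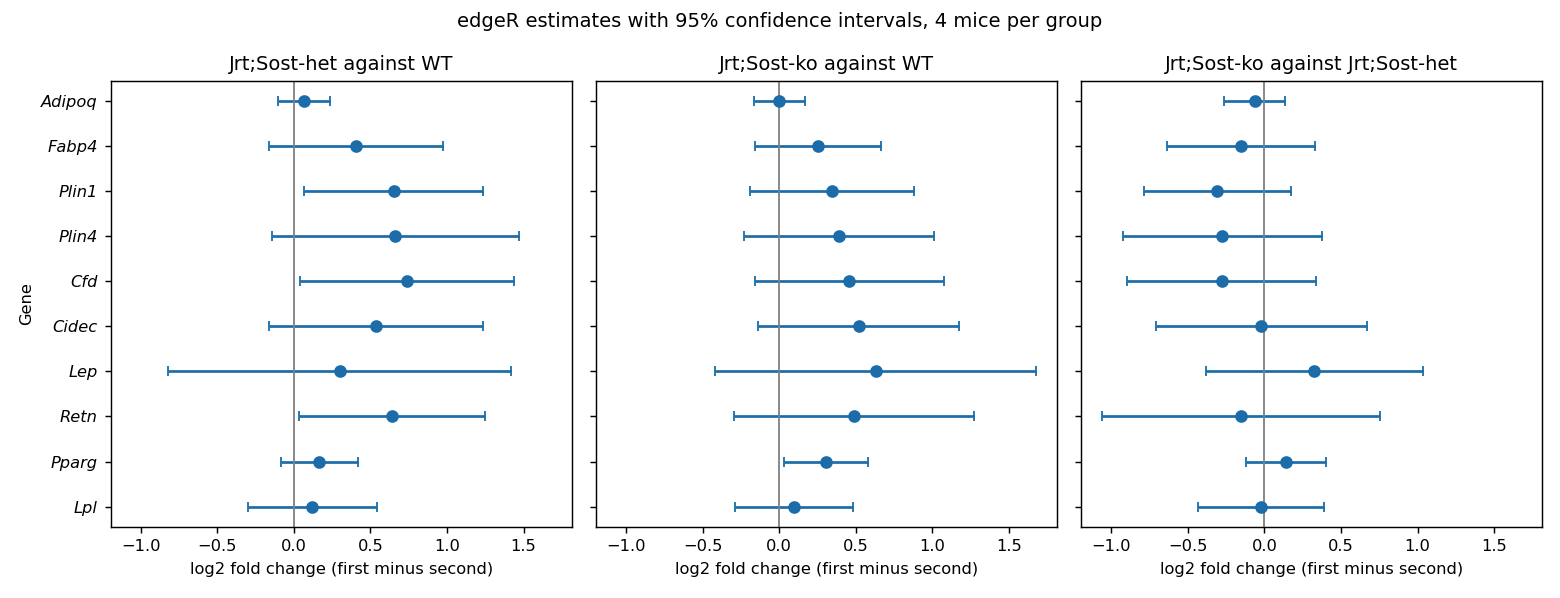
Fitted log2 fold change (x axis, first group minus second) of each adipocyte gene in the 3 comparisons, with 95% confidence intervals derived from the edgeR test (4 mice per group). Against WT the points lie at or to the right of 0, and 4 of the 30 intervals leave out 0, those of *Plin1*, *Cfd* and *Retn* in Jrt;Sost-het and of *Pparg* in Jrt;Sost-ko mice.

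Both comparisons with WT include WT mice 3 and 4, the libraries with epidermal transcripts. With those mice left out and the third group kept for the estimate of the spread, the median log2 fold change of the 10 genes was 0.79 for Jrt;Sost-het and 0.66 for Jrt;Sost-ko mice, and 0 of 10 were called. *Plin1* then stood at 1.09 (adjusted p = 0.22 in edgeR) and *Plin4* at 1.18 (adjusted p = 0.23) in Jrt;Sost-het mice. The 2 WT mice that were kept are those with the lowest summed muscle levels of the group, 2760 and 246 CPM. They also had the lowest summed levels of the 10 adipocyte genes in the group, 869 and 718 CPM. These sums were 973 and 1139 CPM in WT mice 3 and 4. The part of each in the larger medians was not tested.

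The genes differed in how steady they were. The SD of log2 CPM within groups was 0.12 for *Adipoq*, and 28.4% of 14677 genes had a smaller one. It was 0.18 for *Pparg* and 0.29 for *Lpl*, where the median gene was at 0.17. It ranged from 0.36 for *Fabp4* over 0.39 for *Plin1*, 0.47 for *Cfd*, 0.49 for *Cidec* and 0.51 for *Plin4* to 0.59 for *Retn* and 0.70 for *Lep*. At least 82.7% of all genes had a smaller SD than each of the 7 genes from *Fabp4* to *Lep*.

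Relative to *Adipoq* in the same library, a ratio that no scaling can alter, *Cfd* ranged from 0.955 counts per *Adipoq* count in WT mouse 2 to 3.76 in Jrt;Sost-het mouse 2. *Plin4* ranged from 0.291 in WT mouse 2 to 1.04 in Jrt;Sost-het mouse 4. *Lpl* ranged less, from 3.41 to 5.73. These ratios show that adipocyte genes moved unequally between mice.

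**Figure D3:**
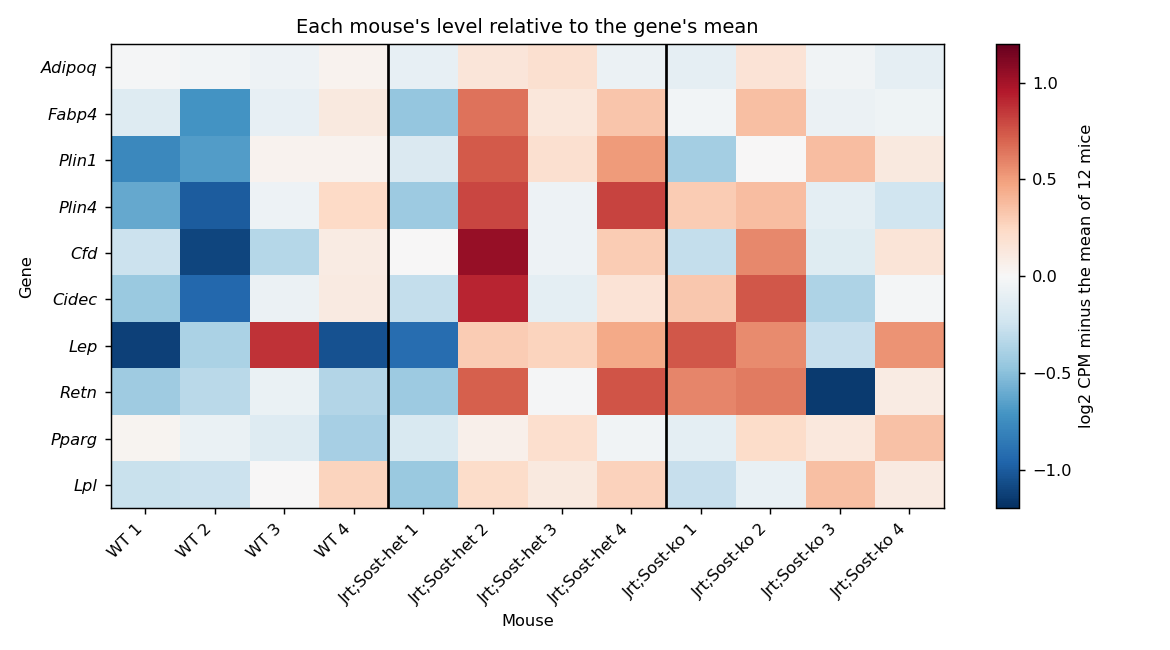
Level of each adipocyte gene in each mouse as log2 CPM minus the mean of the 12 mice (color), with the groups separated by black lines. Jrt;Sost-het mouse 2 is above the median for 10 of 10 genes and WT mouse 2 is lowest for 4, whereas the *Adipoq* row is nearly even.

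Jrt;Sost-het mouse 2 was the highest of 12 for *Fabp4*, *Plin1*, *Cfd* and *Cidec*, and WT mouse 2 the lowest for *Fabp4*, *Plin4*, *Cfd* and *Cidec*. Over the 12 mice, as a description, Pearson's r of log2 CPM was 0.91 for *Fabp4* with *Plin4*, 0.89 for *Fabp4* with *Cidec*, 0.88 for *Fabp4* with *Cfd* and 0.87 for *Cfd* with *Cidec*. For *Plin4* r was 0.88 with *Cidec* and 0.80 with *Cfd*. *Fabp4*, *Plin4*, *Cfd* and *Cidec* were grouped after their values were seen. *Plin1* had an r of 0.80 with *Lpl*, 0.75 with *Plin4* and 0.74 with *Fabp4*, and *Cidec* had 0.75 with *Retn*. *Pparg* had an r of 0.0038 with *Plin4*, the lowest of 45 pairs. The pairs share libraries, and the mice come from 3 groups. *Adipoq* had an r of 0.57 with *Fabp4* and 0.05 with *Lep*. Tested by 100000 permutations, the relation of *Adipoq* with *Fabp4* had p = 0.0548 (Spearman's rho 0.43, p = 0.170; adjusted p = 0.43 for r and 0.70 for rho over 19 relations). With Jrt;Sost-het mouse 3 and Jrt;Sost-ko mouse 2 left out, whose *Adipoq* levels lie farthest from the median, r was 0.55, and within the groups it was 0.56 in Jrt;Sost-het, 0.94 in Jrt;Sost-ko and 0.48 in WT mice.

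Among 14677 genes with a mean of at least 1 CPM, *Fabp4* ranked 133 by its r with *Adipoq*, *Cfd* 417, *Cidec* 512 and *Lep* 6215. These ranks count *Adipoq* itself at rank 1. The 10 genes outside the list with the highest r over the 12 mice were *Ly96* (0.87), *Pid1* (0.85), *Igkv14-111*, *Gm43719*, *Fah*, *Dlg3*, *Negr1*, *Fam3a*, *Tgfbi* and *Slc35f6* (0.77). None of the other 9 adipocyte genes was among them.

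Further genes of the adipocyte were taken as lists by function, and a higher or lower mean is counted by the sign of the fitted log2 fold change. In none of these lists did a gene pass the adjusted threshold in edgeR in any comparison. The share of all genes at an unadjusted p under 0.05 was 5.02% within the colony. It was 2.14% for Jrt;Sost-het and 3.89% for Jrt;Sost-ko mice against WT. Of 9 other mature adipocyte genes, which include *Trarg1* of glucose transporter traffic and the activin receptor gene *Acvr1c*, 9 of 9 had a higher mean in Jrt;Sost-het than in WT mice (median log2 fold change 0.50, 2 at an unadjusted p under 0.05). In the within-colony comparison, 9 of 9 had a lower mean in Jrt;Sost-ko mice (median -0.20, 1 unadjusted). *Trarg1* had log2 fold changes of 0.61 ± 0.24 SE for Jrt;Sost-het against WT and -0.47 ± 0.20 SE within the colony. *Acvr1c* had 0.48 ± 0.34 SE and -0.45 ± 0.30 SE. Both comparisons hold the same Jrt;Sost-het mice.

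Of 13 genes of lipid droplets and lipolysis, 7 had a higher mean in Jrt;Sost-het than in WT mice (median 0.05, 0 unadjusted), and 11 a lower mean in Jrt;Sost-ko mice within the colony (median -0.12, 1 unadjusted). The largest of these within-colony differences were in *Cidea* (-1.19 ± 0.41 SE), a droplet protein of brown fat, and *Plin5* (-0.70 ± 0.42 SE), a perilipin of oxidative tissue. *Cidea* had few counts, 4 to 15 in Jrt;Sost-ko and 9 to 27 in Jrt;Sost-het mice. Of 11 genes of lipid and glucose uptake, 11 had a lower mean in Jrt;Sost-ko mice within the colony (median -0.21, 2 unadjusted), and 10 a higher mean in Jrt;Sost-het than in WT mice (median 0.12, 0 unadjusted). Here the glycerol channel gene *Aqp7* stood at -0.54 ± 0.33 SE and *Cav1*, a gene of caveolae, at -0.44 ± 0.22 SE within the colony. All 10 endothelial genes also had a lower mean there in Jrt;Sost-ko mice (median -0.14, 3 unadjusted), with *Egfl7* at -0.35 ± 0.10 SE and *Cldn5* at -0.28 ± 0.13 SE. The same held for all 15 tested skeletal muscle genes (median -0.99, 1 unadjusted). The part of endothelial and muscle RNA in these values, and in those of the other mature adipocyte genes, was not tested.

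Of 15 genes of fatty acid and triglyceride synthesis, 6 had a higher and 9 a lower mean in Jrt;Sost-ko mice within the colony (median -0.05, 1 unadjusted). *Pck1*, which supplies glycerol for triglyceride, stood at -0.68 ± 0.35 SE and *Gpd1* at -0.29 ± 0.33 SE. Against WT, 11 of the 15 had a higher mean in Jrt;Sost-het mice (median 0.15, 1 unadjusted) and 8 in Jrt;Sost-ko mice (median 0.01, 3 unadjusted, 3 without overlap, where 2.4% of all genes did not overlap).

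The 3 genes without overlap between Jrt;Sost-ko and WT, named after their values were seen, were *Scd1* and *Scd2*, which encode stearoyl-CoA desaturases, and *Thrsp*, a gene tied to lipogenesis. *Scd1* was at 845, 1015, 1099.6 and 795 CPM in Jrt;Sost-ko mice and at 460.3, 543, 624 and 699 CPM in WT mice (log2 fold change 0.70 ± 0.16 SE, adjusted p = 0.9996 in edgeR). *Scd2* was at 122, 148, 136 and 124 CPM against 83.1, 98.2, 109 and 103 CPM (log2 fold change 0.44 ± 0.10 SE). *Thrsp* was at 16.3, 24.4, 16.6 and 15.5 CPM against 8.01, 4.85, 9.63 and 14.4 CPM (log2 fold change 0.98 ± 0.31 SE). All Jrt;Sost-ko values lay above all WT values for these genes, whereas none of the 3 passed the adjusted threshold. For *Scd1* the log2 fold change was 0.65 ± 0.27 SE in Jrt;Sost-het against WT mice and 0.05 ± 0.25 SE within the colony. In the same order, *Scd2* had 0.15 ± 0.12 SE and 0.28 ± 0.10 SE. *Thrsp* had 0.96 ± 0.46 SE and 0.02 ± 0.37 SE. The groups overlapped for all 3 genes in both of these comparisons.

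Of 11 adipogenic transcription factors, 5 had a higher and 6 a lower mean in Jrt;Sost-ko mice within the colony (median -0.02, 2 unadjusted). There 1 was without overlap, where 3.2% of all genes did not overlap. *Ebf2* was the factor without overlap, at 3.86, 4.13, 4.44 and 6.50 CPM in Jrt;Sost-het mice and 3.32, 2.62, 3.58 and 2.71 CPM in Jrt;Sost-ko mice (log2 fold change -0.63 ± 0.21 SE, adjusted p = 0.90 in edgeR). *Mlxipl*, a glucose-responsive factor, stood at -0.73 ± 0.54 SE. For Jrt;Sost-ko against WT, 7 of the 11 had a higher mean (median 0.06, 1 unadjusted). Of the 11, 2 were without overlap, where 2.4% of all genes did not overlap. They were *Srebf1* (0.15 ± 0.05 SE) and *Nr1h3* (0.13 ± 0.08 SE), both named after their values were seen. Of 10 adipokines and adipokine receptors, 5 had a higher and 5 a lower mean in Jrt;Sost-ko mice within the colony (median -0.01, 1 unadjusted). There *Cdh13*, a receptor of adiponectin, stood at -0.93 ± 0.41 SE and *Sfrp5* at 0.41 ± 0.41 SE. Of 10 genes of marrow adipogenic precursors, 7 had a higher mean in Jrt;Sost-ko mice within the colony (median 0.06, 1 unadjusted). Here *Vcam1* stood at 0.34 ± 0.14 SE and *Il7* at -0.26 ± 0.18 SE.

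The brown fat marker *Ucp1* had 0 counts in 8 of 12 mice and at most 7 counts in the others. Of the 9 brown adipocyte genes, 6 passed the filter on low counts. Of these, 5 had a lower mean in Jrt;Sost-ko mice within the colony (median -0.68, 1 unadjusted), with *Cox8b* at -1.20 ± 0.99 SE. All 15 tested skeletal muscle genes also had a lower mean in Jrt;Sost-ko mice (median -0.99, 1 unadjusted), with *Mb* at -1.52 ± 1.21 SE, and the part of muscle RNA in the brown adipocyte values was not tested.

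Genes of other cells of the shaft were counted in the same way, beside the same shares of all genes. Of 10 macrophage genes, 7 had a higher mean in Jrt;Sost-ko mice within the colony (median 0.02, 0 unadjusted), with *Fcgr1* at 0.45 ± 0.29 SE and *Cd14* at 0.39 ± 0.23 SE. The summed macrophage level ranged from 2566 to 3828 CPM over all mice. Of 10 osteoblast genes, 9 had a higher mean (median 0.29, 2 unadjusted), with *Bglap*, the osteocalcin gene, at 0.46 ± 0.11 SE and *Col1a2* at 0.41 ± 0.19 SE. Of 10 osteocyte genes, 7 had a higher mean (median 0.33, 5 unadjusted in both directions), and *Sost* was the 1 called. Among those 5, *Dkk1*, *Irx5* and *Mepe* were higher, whereas *Sost* and *Fbln7* (-0.97 ± 0.27 SE) were lower. Of 12 neutrophil genes, 9 had a lower mean (median -0.10, 1 unadjusted), with *Ly6g* at -0.32 ± 0.12 SE, and of 9 erythroid genes 8 had a higher mean (median 0.10, 0 unadjusted), with *Hba-a2* at 0.21 ± 0.16 SE. Of 6 tested epidermis genes, 6 had a lower mean in Jrt;Sost-het than in WT mice (median -3.02, 4 unadjusted), as did 3 of 3 tested genes of the sebaceous gland, whose cells also store lipid (median -0.48, 2 unadjusted). The part of these cells in the adipocyte values was not tested.

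**Figure D4:**
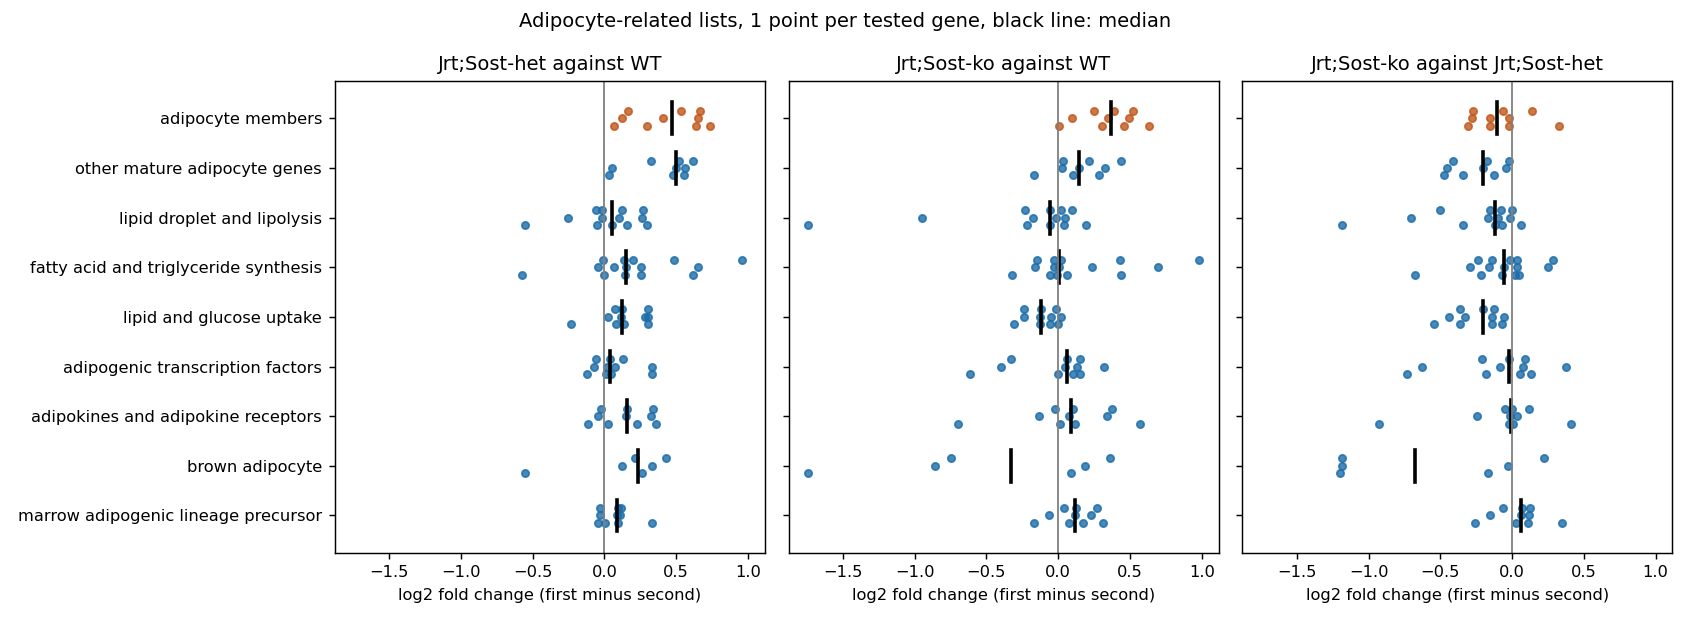
Log2 fold change (x axis, first group minus second) of every tested gene of the adipocyte genes (orange) and of 8 related lists (blue) in the 3 comparisons, with 1 point per gene and the median as a black line. For Jrt;Sost-het against WT the medians of the 10 adipocyte genes (0.47) and of the other mature adipocyte genes (0.50) lie farthest to the right.

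Skeletal muscle genes varied widely between mice, and each adipocyte gene was set against the mean log2 CPM of the muscle genes. None of the 10 relations passed adjustment over the 19 relations (100000 permutations, adjusted p at least 0.43 for r). By Pearson's r the largest was for *Plin4*, a gene that muscle also uses, with r = 0.56 (permutation p = 0.0568; Spearman's rho 0.48, p = 0.115). By Spearman's rho the largest was for *Lpl* (rho 0.58, permutation p = 0.0524; r = 0.36, p = 0.257). For *Pparg* r was -0.54 (permutation p = 0.0684; rho -0.45, p = 0.146). With Jrt;Sost-ko mouse 4 and WT mouse 2 left out, whose muscle levels lie farthest from the median, r was 0.45 for *Plin4*, 0.69 for *Lpl* and -0.48 for *Pparg*. Within groups *Plin4* had r of 0.76 in Jrt;Sost-het, 0.52 in Jrt;Sost-ko and 0.98 in WT mice. *Lpl* had 0.86, -0.10 and 0.86, and *Pparg* 0.34, -0.81 and -0.68, in the same order, so that their signs differed between groups. With 4 mice a group, those within-group values carry no test.

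Jrt;Sost-ko mouse 4, whose muscle genes summed to 37.0 CPM and whose *Acta1* stood at 1.89 CPM, had *Adipoq* at 76.1, the lowest of the 12 mice, *Fabp4* at 273, *Cfd* at 184 and *Lep* at 9.07 CPM. Its adipocyte genes summed to 1065 CPM, within the range of 939 to 1218 CPM of its group. The next lowest *Adipoq*, 76.2 CPM, was in Jrt;Sost-ko mouse 1, whose muscle genes summed to 9817 CPM. WT mouse 2, with muscle genes at 246 CPM, had the lowest sum of adipocyte genes, 718 CPM.

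**Figure D5:**
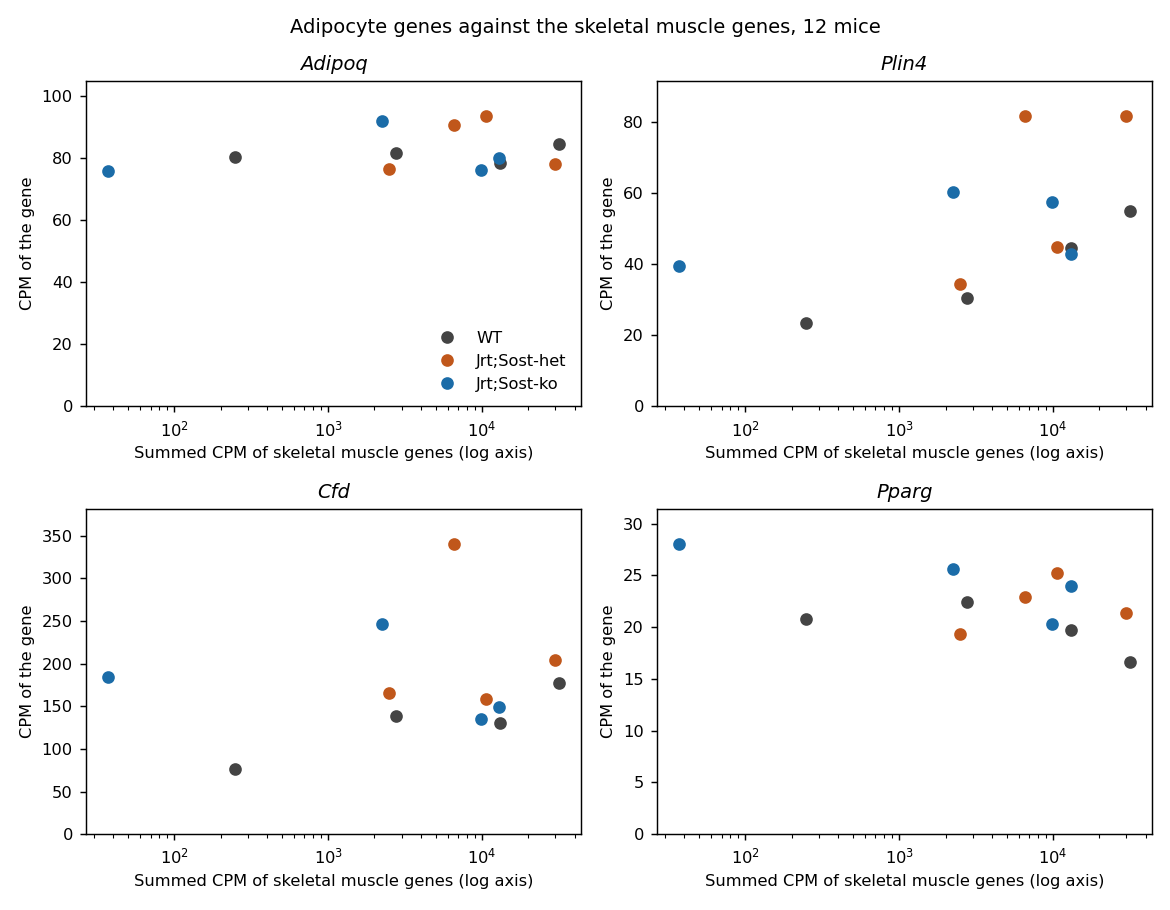
Level of *Adipoq*, *Plin4*, *Cfd* and *Pparg* (CPM, y axis from 0) against the summed CPM of the skeletal muscle genes (log axis), with 1 point per mouse colored by group. The mouse at 37.0 CPM of muscle genes has the lowest *Adipoq* of the 12, 76.1 CPM, and the highest *Pparg*, 28.1 CPM. The next lowest *Adipoq*, 76.2 CPM, is in Jrt;Sost-ko mouse 1, at 9817 CPM of muscle genes.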

How the data were processed

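RNA was taken from flushed tibia shafts and sequenced as poly(A) libraries in paired ends. The authors aligned reads to GRCm38 with STAR and deposited raw counts for 47069 genes. The counting tool, strand setting and annotation release are not given in the sources used here. The RNA was of the whole shaft, not of sorted cells. The deposited tables of comparisons hold fold changes and p-values and were not used, nor were 108 other columns of values per mouse.

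For each comparison, the 8 mice were modelled with edgeR 4.0.16 in R 4.3.3 (filterByExpr, TMM, glmQLFit, glmQLFTest), with Benjamini–Hochberg adjustment over all genes tested and a threshold of 0.05. Log2 CPM were computed with a prior count of 2. Exact permutation tests were added for single genes, and the functions were tested on simulated data. Mice carry numbers that pair none of them. The edgeR p-values set each group difference against the spread between these mice, estimated with information shared across genes. The correlation p-values permute all 12 mice over the 3 groups, so they mix differences between groups with differences between mice. Alternatives were DESeq2 1.42.0 and its size factors, limma-voom (limma 3.58.1), other filters, TMM without blood, muscle and skin genes, all 12 mice in 1 fit, muscle as a covariate, and leaving out mice. The genes and the 17 further lists were chosen with earlier results of these data known. Named were the 10 genes, *Sost*, the 10 genes most like *Adipoq*, marker genes, and from each list named genes past the threshold or else the 2 with the largest difference between the groups of the Jrt colony. Gene positions and lengths are from GENCODE M21, promoter letters from RefSeq.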

Additional observations from a re-analysis of the deposited data

Results flagged for a closer look

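In Jrt;Sost-ko mice, *Fabp4* was at 362 CPM in mouse 2 and between 269 and 277 CPM in the other 3. The gap of mouse 2 to the nearest mouse was 0.916 of the range of the group, above the critical value of Dixon's test for 4 values. This was the 1 group beyond that value among 30 tested (10 genes in 3 groups), where chance gives about 1 in 20, or 1.5 of 30. Without that mouse, 0 adipocyte genes were called in either comparison.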

How the results depend on the processing

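No adipocyte gene was called under any alternative run, with adjusted p between 0.22 and 0.99998 over 500 refits of single genes. The number of genes called among all genes was 1 in the within-colony comparison of Jrt;Sost-ko mice (7 with DESeq2, 0 with limma-voom, 0 with the muscle covariate, 0 to 3 leaving out 1 mouse), 0 for Jrt;Sost-het against WT (4 with DESeq2) and 1 for Jrt;Sost-ko against WT (18 with DESeq2, 2 with limma-voom, 2 without a filter, 6 without WT mice 3 and 4, 0 to 2 leaving out 1 mouse). Of the 10 adipocyte genes, the number without overlap of the groups was 0, and leaving out 1 mouse it was 0 to 1 within the colony, 0 to 3 for Jrt;Sost-het against WT and 0 to 1 for Jrt;Sost-ko against WT. The 3 genes were found without Jrt;Sost-het mouse 1. The cause of these shifts was not tested.

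Direction turned in 7 of the 30 comparisons of single genes. For *Adipoq* in Jrt;Sost-ko against WT the log2 fold change was -0.0018 with DESeq2 size factors, -0.0031 with TMM without muscle, epidermis, erythroid and neutrophil genes, -0.011 without a filter, -0.0052 with at least 10 counts in every mouse and -0.00049 with all 12 mice in 1 fit. Within the colony, *Cidec* was at 0.052 with limma-voom and 0.027 with the muscle covariate, and *Lpl* at 0.036 with the muscle covariate. Leaving out 1 mouse at a time, the within-colony log2 fold change ranged from -0.33 to 0.024 for *Fabp4*, -0.48 to 0.019 for *Cfd*, -0.25 to 0.29 for *Cidec*, -0.34 to 0.12 for *Retn* and -0.17 to 0.067 for *Lpl*, and that against WT in Jrt;Sost-ko mice from -0.067 to 0.030 for *Adipoq* and -0.030 to 0.22 for *Lpl*. The values above 0 for *Fabp4* and *Cfd* came without Jrt;Sost-het mouse 2. The cause was not tested. No paired analysis was possible because the replicate numbers follow the order of the labels and tie no mice across groups. With 4 mice per group, folds anywhere within the intervals given above are compatible with the data, and the smallest detectable difference was not computed.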
